A study of Mus musculus with 4 samples.

Results

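The 48 genes described here encode proteins of mitosis, the kinetochore and cytokinesis. They were chosen by name, as every gene whose identifier maps to 1 of 48 listed symbols, without use of their levels. All 48 were found among the 50600 genes counted. The study is RNA sequencing of primary regulatory T cells from the mouse strain C57BL/6NJ, with 4 libraries numbered as biological replicates 1 to 4. All 4 libraries form 1 group, so there was no other condition to compare them with, and the levels and their spread between libraries are described. No label names a treatment, age or sex. A protocol for differentiating CD4+ T cells is cited, and the names of the aligned files carry the words activated and 48h, which the labels do not explain. The labels call the assay total RNA-seq, while the library protocol they cite is for polyA+ RNA. Each library has its own biosample under 1 shared donor record, and no label says whether they came from separate animals or cultures. The p-values below therefore measure only the spread between these samples, which may be technical.

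Mitosis divides the duplicated chromosomes between daughter cells. Condensins compact the chromosomes, kinetochores built on centromeric nucleosomes hold them to spindle microtubules, and a checkpoint delays anaphase until every kinetochore is attached. The anaphase-promoting complex then marks securin and cyclin B for destruction, separase cuts the cohesin that holds sister chromatids together, and the central spindle directs the ring that pinches the cell apart. Most of these genes are transcribed in G2 and M phase, so their messages are scarce in resting T cells and abundant in T cells that divide.

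The libraries held 43821767, 58696937, 73819468 and 52005209 counts in replicates 1 to 4. Levels are given in TPM, the counts divided by the summed exon length of each gene and scaled to the same total in every library, as mean ± SD over the 4 libraries (n = 4). The labelled cell type was checked against markers. Foxp3, the factor that defines regulatory T cells, averaged 289 ± 23.5 TPM and Cd4 averaged 611 ± 25.4 TPM. Il2ra, the high-affinity interleukin 2 receptor chain, averaged 1488 ± 19.4 TPM. Ikzf2 was the lowest of the 10 T cell markers at 13.2 ± 1.99 TPM, and all 10 reached 1 TPM in every library. Of 6 markers each, 1 of the B cell list (Cd79b), 1 of the CD8 and natural killer list (Cd8b1), 1 of the stromal and epithelial list (Pecam1) and 0 of the myeloid, the erythroid and megakaryocyte and the granulocyte lists did so. The summed level of each of these other lists stayed between 0 and 13.8 TPM per library, against 5520.4 to 5636.1 TPM for the T cell list, and Lyz2, Ncr1, Gzmk, Hbb-bs, Hba-a1, S100a8, S100a9, Elane, Mpo and Krt8 had no count.

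Every gene of the group was expressed. All 48 reached at least 1 TPM in each library, against 22.9% of all genes in the files and 47.2% of protein-coding genes. Of the 48, 36 lay above 50 TPM in all 4 libraries, against 17.1% of protein-coding genes, and 20 lay above 100 TPM. The median of the 48 means was 92.0 TPM, against 33.7 TPM over the 10274 protein-coding genes expressed in all libraries. Among those genes 42 of the 48 lay above the median, 29 above the 75th percentile and 12 above the 90th. Together the 48 genes took up 6140.4 ± 87.1 TPM, which is 0.614 ± 0.0087% of each library, and single genes received between 539 and 74677 counts per library. In bulk RNA a larger share of dividing cells and more message per dividing cell cannot be told apart.

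**Figure D1:**
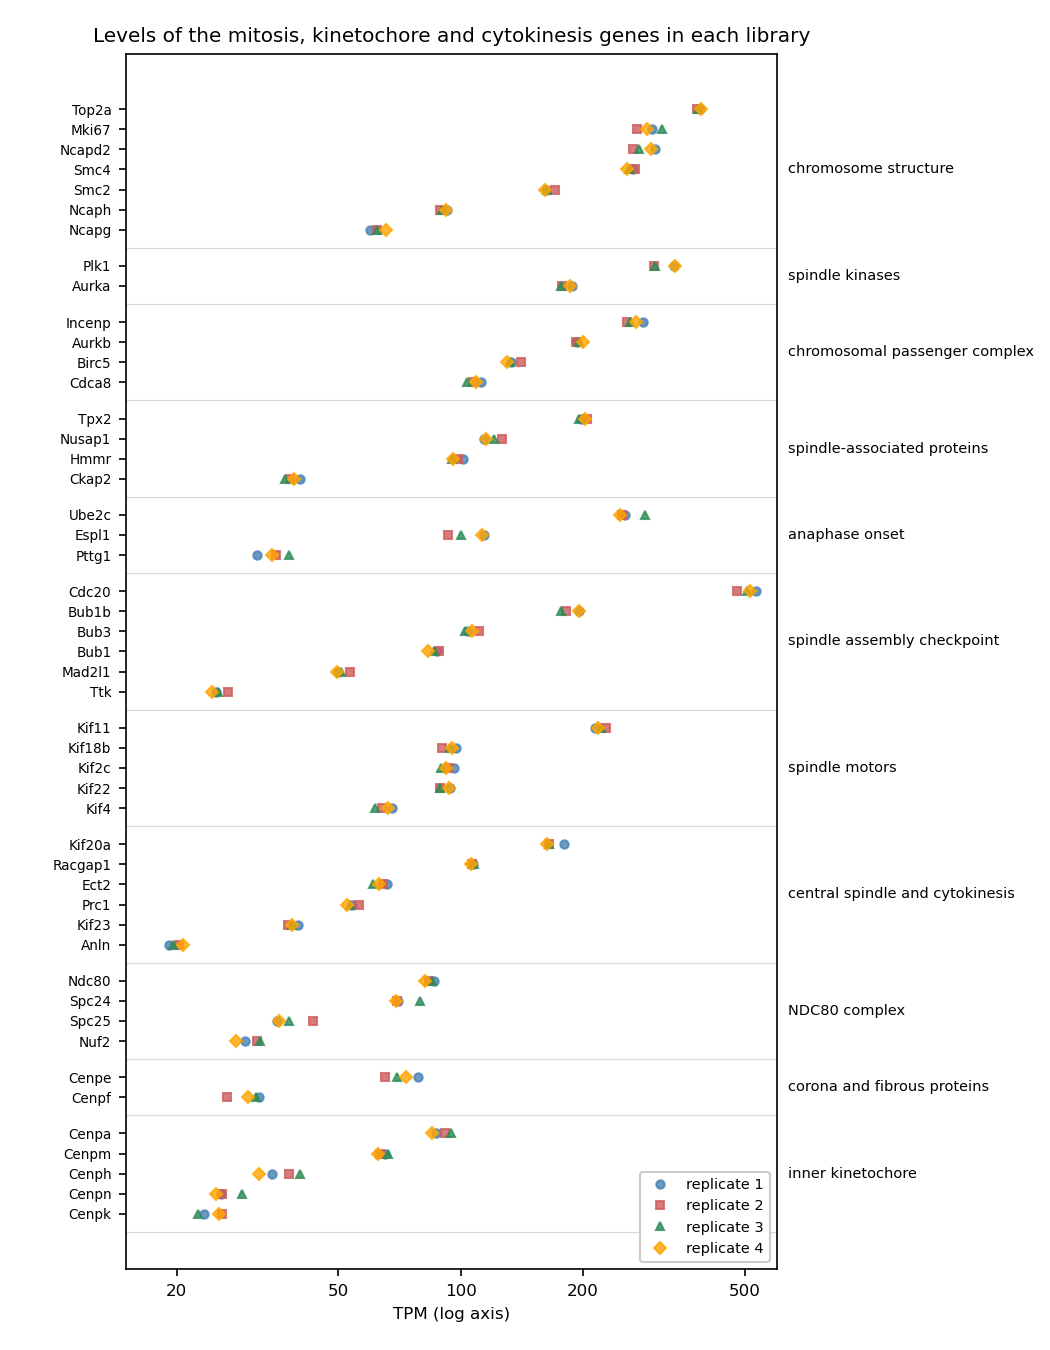
TPM of each of the 48 genes (log axis) in replicates 1 to 4, grouped by role. The means run over a 25.5-fold range, with Cdc20 at 508 TPM at the top and Anln at 19.9 TPM at the bottom, while the 4 symbols of most genes lie close together.

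The order of the levels was steady for genes far apart and loose for neighbours. Of all 1128 pairs of the 48 genes, 1079 (95.7%) stood in the same order in all 4 libraries, but only 20 of the 47 pairs of direct neighbours did. The order was led by Cdc20, Top2a, Plk1, Mki67, Ncapd2, Incenp, Smc4, Ube2c, Kif11 and Tpx2. Cdc20 stood above Top2a, and Top2a above Plk1, in 4 of 4 libraries. Plk1 stood above Mki67 in 3 of 4 and Mki67 above Ncapd2 in 2 of 4, so the order of those last genes was within the spread between libraries. Levels per length depend on the length used. With the longest protein-coding transcript in place of the summed exons, Top2a led at 483 ± 5.85 TPM and Cdc20 followed at 384 ± 17.9 TPM.

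The promoters of the group share short elements that the choice of genes did not use. Genes of G2 and M phase are known for the cell cycle genes homology region, a hexamer read TTTGAA or TTTAAA that the LIN54 subunit of the DREAM and MYB-MuvB complexes binds, and for CCAAT boxes, which NF-Y binds. RefSeq windows of 300 bases (GRCm38.p6, 250 bases before to 50 after the annotated start) were at hand for 42 of the 48 genes. Aurkb, Incenp, Kif20a, Smc4, Spc24 and Tpx2 were not matched, and for the 4 genes with several windows the first listed was used. Both strands were searched, TTTAAA reads the same on both, and a CCAAT on the opposite strand can overlap TTTGAA by 1 base. TTTGAA stood in 31 of the 42 windows (73.8%), against 18.1% of 27025 promoters in the table and 11.7% of 8261 promoters of expressed protein-coding genes. TTTAAA stood in 8 (19.0%), against 13.2% of all promoters and 8.76% of those of expressed genes. Either hexamer lay between 50 bases before and 50 bases after the start in 28 windows (66.7%), against 8.24% of all promoters and 4.64% of those of expressed genes.

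CCAAT stood in 33 of the 42 windows (78.6%), against 37.9% of all promoters and 39.8% of those of expressed genes. CCAAT stood together with either hexamer in 29 (69.0%), against 10.9% of all promoters and 7.92% of those of expressed genes. At least 2 CCAAT boxes were found in 19 windows (45.2%), against 12.2% of all promoters. The E2F-type letters TTTCGCGC were in 0 windows and TTTGGCGC was in 1, that of Ncapd2. All promoters had 0.318% and 0.537%, and those of expressed genes had 0.702% and 1.11%. The median GC content of the 42 windows was 59.0%, against 61.3% for expressed protein-coding genes and 52.7% for all promoters.

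The following stretches show the arrangement in genes from different places in the order of levels, Cdc20, Top2a and Plk1 being its first 3. Each runs from 120 bases before the annotated start through the first 30 transcribed bases, 5′ to 3′ on the strand of the gene, with every match to the hexamers or to CCAAT on either strand in capitals. Matches on the opposite strand appear as their reverse complements, so that a CCAAT box there reads ATTGG. Nuf2 is shown as a gene with no match.
Cdc20, chr4:118437314-118437463 (-): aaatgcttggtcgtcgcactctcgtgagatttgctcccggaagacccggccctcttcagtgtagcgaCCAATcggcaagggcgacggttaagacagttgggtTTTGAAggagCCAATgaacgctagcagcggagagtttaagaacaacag
Top2a, chr11:99024160-99024309 (-): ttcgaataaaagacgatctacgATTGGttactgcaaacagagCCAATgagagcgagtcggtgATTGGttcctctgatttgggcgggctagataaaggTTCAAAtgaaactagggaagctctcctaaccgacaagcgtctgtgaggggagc
Plk1, chr7:122159315-122159464 (+): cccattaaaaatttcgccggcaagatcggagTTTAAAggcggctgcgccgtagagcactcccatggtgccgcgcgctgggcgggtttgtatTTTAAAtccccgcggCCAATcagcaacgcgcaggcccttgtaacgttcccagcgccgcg
Ube2c, chr2:164769809-164769958 (+): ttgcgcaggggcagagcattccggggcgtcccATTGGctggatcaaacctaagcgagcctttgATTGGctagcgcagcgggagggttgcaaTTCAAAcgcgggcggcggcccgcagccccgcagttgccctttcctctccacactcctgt
Hmmr, chr11:40733408-40733557 (-): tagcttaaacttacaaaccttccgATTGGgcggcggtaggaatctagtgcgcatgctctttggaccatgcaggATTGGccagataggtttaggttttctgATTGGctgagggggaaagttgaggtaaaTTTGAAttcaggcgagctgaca
Kif23, chr9:61946770-61946919 (-): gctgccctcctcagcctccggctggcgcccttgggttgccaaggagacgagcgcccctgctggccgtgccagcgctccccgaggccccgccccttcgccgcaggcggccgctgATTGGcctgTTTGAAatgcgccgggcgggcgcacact
Ttk, chr9:83834569-83834718 (+): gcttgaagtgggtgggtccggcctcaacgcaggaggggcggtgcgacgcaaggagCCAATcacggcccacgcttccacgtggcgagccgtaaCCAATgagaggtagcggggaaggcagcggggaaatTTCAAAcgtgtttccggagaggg
Cenpf, chr1:189688057-189688206 (-): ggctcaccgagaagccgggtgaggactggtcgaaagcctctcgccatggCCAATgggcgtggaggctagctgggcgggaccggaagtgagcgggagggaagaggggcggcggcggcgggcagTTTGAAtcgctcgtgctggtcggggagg
Nuf2, chr1:169531435-169531584 (-): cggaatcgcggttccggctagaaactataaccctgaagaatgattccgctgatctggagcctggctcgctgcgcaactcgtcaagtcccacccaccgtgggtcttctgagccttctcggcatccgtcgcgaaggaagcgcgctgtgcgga

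Counted from the first transcribed base as 0, Cdc20 carried TTTGAA at position -18 between CCAAT boxes at -53 and -8. Top2a carried TTTGAA on the opposite strand at -23, after CCAAT boxes at -98, -78 and -58. Plk1 carried TTTAAA at -89 and -29 with CCAAT at -14, and a TTTGAA at 30, just past the stretch shown. In Hmmr, Kif23 and Ttk the hexamer began after the start, at 8, 2 and 7. Cenpf carried TTTGAA at 2 and also a TTTAAA at -154, before the stretch shown. Over all 42 genes the hexamer was most frequent in the first 25 transcribed bases, where it began in 14 windows (33.3%), against 1.22% of the promoters of expressed genes. CCAAT was most frequent between positions -75 and -51, with 13 windows (31.0%), against 9.89%. No hexamer was found in 9 windows, those of Nuf2, Nusap1, Ncaph, Bub1, Mad2l1, Pttg1, Cenph, Cenpk and Cenpm. The 33 genes with a hexamer had a median level of 94.0 TPM, and the 9 without had 50.8 TPM, with ranges of 19.9 to 508 TPM and 24.3 to 119 TPM that overlap. These matches describe letters in a window and do not show binding.

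**Figure D2:**
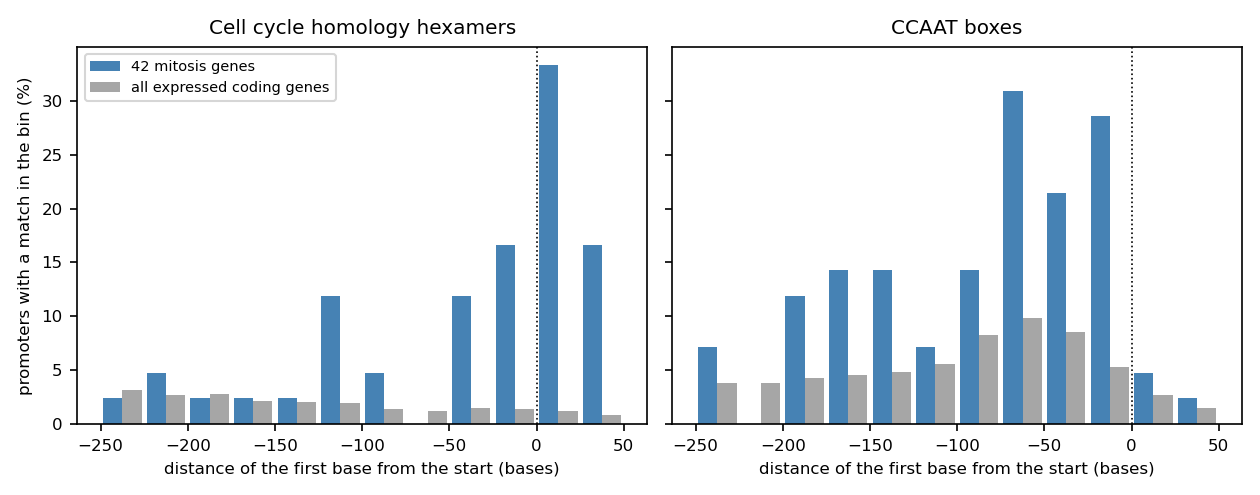
Share of promoters (%) with a match that begins in each bin of 25 bases, by distance from the annotated start in bases, for the 42 matched mitosis genes (blue) and all 8261 expressed protein-coding genes (grey). The hexamers TTTGAA and TTTAAA (left) peak just after the start at 33.3% of the 42 genes, and CCAAT boxes (right) peak upstream of it at 31.0%.

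The spindle kinases were among the highest genes. Plk1, the Polo-like kinase that acts from mitotic entry to cytokinesis, had 334, 298, 301 and 336 TPM in replicates 1 to 4 and averaged 317 ± 20.7 TPM (ENSMUSG00000030867.7, mm10 chr7:122159439-122169873). Replicates 1 and 4 stood above replicates 2 and 3. Aurka, the kinase of centrosome maturation and spindle poles, averaged 182 ± 5.85 TPM. Its activator Tpx2 had 198, 204, 196 and 202 TPM, averaged 200.1 ± 4.05 TPM and stood above Aurka in 4 of 4 libraries. With the longest transcript as length the order turned, with Tpx2 at 156 ± 3.05 TPM and Aurka at 176 ± 5.90 TPM. Of the different words of 50 bases in the transcripts of Plk1, 6.56% are shared with the pseudogene Plk-ps1, so the division of counts from those stretches is uncertain.

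The genes of chromosome structure held the largest summed level of any role, 1540.5 ± 23.4 TPM over 7 genes. Top2a, the topoisomerase that untangles sister chromatids, had 388, 381, 383 and 391 TPM and averaged 386 ± 4.34 TPM (ENSMUSG00000020914.17, mm10 chr11:98992943-99024189). Its spread was among the smallest of the highly expressed genes. Mki67, which coats mitotic chromosomes and is the common marker of proliferating cells, had 296, 272, 312 and 287 TPM and averaged 292 ± 16.7 TPM. Replicate 2 was the lowest and replicate 3 the highest.

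The condensin I subunits did not share a level. Ncapd2 had 301, 265, 275 and 294 TPM and averaged 284 ± 16.6 TPM. Ncaph, the kleisin that closes the ring, averaged 91.0 ± 1.72 TPM, and Ncapg averaged 62.4 ± 2.28 TPM. The ATPase subunits Smc4 and Smc2, which condensin I and II share, were both high. Smc4 had 265, 268, 260.1 and 256 TPM and averaged 262 ± 5.35 TPM, and Smc2 averaged 164 ± 4.12 TPM. In condensin II the kleisin Ncaph2 stood at 223 ± 8.71 TPM, Ncapg2 at 104 ± 2.84 TPM and Ncapd3 at 59.8 ± 0.902 TPM. Of the HEAT-repeat subunits the D type thus stood above the G type in condensin I and below it in condensin II, a contrast that was not tested.

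The inner kinetochore genes were low within the group, with a median of 36.1 TPM over 5 genes. Cenpa, the centromeric histone H3 variant on which kinetochores are built, averaged 89.4 ± 4.23 TPM (ENSMUSG00000029177.9, mm10 chr5:30666777-30674830). That value depends on the length used, and was 259.7 ± 12.1 TPM with the longest transcript. Cenpm averaged 64.4 ± 1.65 TPM. Cenph had 34.2, 37.9, 40.3 and 31.9 TPM, averaged 36.1 ± 3.74 TPM and had the largest coefficient of variation of the 48 genes, 10.4%. Cenpn, which reads CENP-A nucleosomes, had 25.8, 25.8, 28.9 and 25.01 TPM and averaged 26.4 ± 1.75 TPM. Cenpk had 23.3, 25.9, 22.6 and 25.4 TPM and averaged 24.3 ± 1.59 TPM. Cenph, Cenpk and Cenpm belong to the constitutive centromere-associated network, the layer between the centromere and the microtubule-binding proteins.

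The NDC80 complex, the outer kinetochore's main microtubule binder, had means between 30.3 and 83.9 TPM. Ndc80, the subunit that grips the microtubule, averaged 83.9 ± 1.79 TPM, and its dimer partner Nuf2 averaged 30.3 ± 1.88 TPM. Spc24 averaged 72.1 ± 4.92 TPM, with 79.4 TPM in replicate 3 and 69.4 to 69.9 TPM in the others. Its partner Spc25 had 35.3, 43.3, 37.7 and 35.7 TPM and averaged 38.0 ± 3.67 TPM, with replicate 2 the highest. Cenpe, the kinesin of the fibrous corona that carries chromosomes to the equator, had 78.3, 65.0, 69.7 and 73.1 TPM and averaged 71.5 ± 5.64 TPM. Cenpf, a large coiled-coil protein of the corona, had 31.9, 26.6, 31.3 and 30.0 TPM and averaged 29.9 ± 2.37 TPM. Both corona genes were lowest in replicate 2 and highest in replicate 1.

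The checkpoint genes spread the widest. Cdc20, the activator of the anaphase-promoting complex and the target the checkpoint holds back, had 533, 478, 507 and 514 TPM and averaged 508 ± 22.9 TPM (ENSMUSG00000006398.15, mm10 chr4:118432901-118437352). Of the different words of 50 bases in its transcripts, 10.4% are shared with other genes, mainly the pseudogene Gm7856. Bub1b, which encodes the inhibitor BubR1, averaged 187 ± 9.60 TPM. Its companion Bub3 averaged 106 ± 3.76 TPM and the kinase Bub1 averaged 86.2 ± 2.32 TPM. Mad2l1, the protein that locks Cdc20 into the inhibitory complex, averaged 50.8 ± 1.71 TPM. Ttk, the Mps1 kinase that starts the signal, had 24.98, 26.8, 25.2 and 24.5 TPM and averaged 25.4 ± 1.01 TPM, so the target of the checkpoint had the highest level of the group and its starting kinase had among the lowest.

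Among the genes of anaphase onset, Ube2c, the ubiquitin-conjugating enzyme of the anaphase-promoting complex, had 253, 249, 284 and 246 TPM and averaged 258 ± 17.5 TPM. Replicate 3 stood above the others. Espl1, which encodes separase, had 114, 93.1, 100.3 and 113 TPM and averaged 105 ± 9.99 TPM, with replicates 2 and 3 below replicates 1 and 4. Pttg1, the securin that inhibits separase, averaged 34.7 ± 2.60 TPM.

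The chromosomal passenger complex corrects faulty attachments and later moves to the central spindle. Its scaffold Incenp had 280.5, 256, 261 and 270.1 TPM and averaged 267 ± 10.6 TPM. The kinase Aurkb averaged 195 ± 3.58 TPM, Birc5, which encodes survivin, averaged 134 ± 4.46 TPM, and Cdca8, which encodes borealin, averaged 108 ± 3.50 TPM. With the longest transcript as length Cdca8 stood at 249.9 ± 8.51 TPM, Aurkb at 214 ± 3.75 TPM and Incenp at 193 ± 8.02 TPM, which is another order.

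Kif11, the kinesin that pushes spindle poles apart, led the motors with 215, 228, 221 and 218 TPM and a mean of 221 ± 5.83 TPM. Kif18b averaged 94.0 ± 3.17 TPM and Kif2c 92.7 ± 2.74 TPM, and both products shorten microtubules. The chromokinesins Kif22 and Kif4 averaged 91.3 ± 2.69 and 64.8 ± 2.65 TPM. Kif18b, Kif2c and Kif22 lay within the spread of each other. Among the other spindle-associated genes Nusap1, a microtubule bundler, averaged 119 ± 5.73 TPM, Hmmr 97.6 ± 2.83 TPM and Ckap2 38.5 ± 1.41 TPM.

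The 6 genes of the central spindle and cytokinesis had a median of 58.7 TPM. Kif20a, the kinesin that brings Plk1 and the passenger complex to the midzone, averaged 168 ± 7.78 TPM. Replicate 1 stood at 179.6 TPM, above 163 to 165 TPM in the others. Racgap1, the GTPase-activating subunit of centralspindlin, averaged 107 ± 0.676 TPM and had the smallest coefficient of variation of the 48 genes, 0.633%. Its motor partner Kif23 averaged 38.5 ± 0.962 TPM. Ect2, the exchange factor that activates RhoA at the equator, averaged 63.4 ± 2.13 TPM, and Prc1, the bundler of antiparallel microtubules, averaged 54.0 ± 1.57 TPM. Anln, the anillin scaffold of the contractile ring, was the lowest of the 48 with 19.1, 20.3, 19.5 and 20.7 TPM and a mean of 19.9 ± 0.694 TPM.

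Partners in a complex or step were then set side by side within each library, as 16 ratios of TPM. Each of the 16 ratios lay on the same side of 1 in 4 of 4 libraries. Of all 1128 pairs of genes in the group, 1079 (95.7%) likewise kept their order in all 4 libraries. The steadiness of the 16 is therefore not read as a trait of partners. In NDC80, Nuf2 stood at 0.360 ± 0.0200 of Ndc80. That ratio was 0.949 with the longest transcript, and in CPM, which takes no length into account, it turned to a log2 of 0.053. Spc24 stood at 1.91 ± 0.212 times Spc25. In condensin I, Ncapg stood at 0.220 ± 0.0153 and Ncaph at 0.321 ± 0.0128 of Ncapd2, and Smc4 stood at 1.60 ± 0.0236 times Smc2. Securin (Pttg1) stood at 0.333 ± 0.0508 of separase (Espl1), and Racgap1 at 2.77 ± 0.0640 times Kif23. An exact permutation test of the sign of the log2 ratio, two-sided, gave p = 0.125 for each ratio, adjusted p = 0.125 over the 16, which is the smallest p that 4 libraries allow. No ratio could therefore pass 0.05, and the steadiness is described by the libraries alone.

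With summed exon length the ratio of Aurka to Aurkb was 0.932 ± 0.0305 and that of Tpx2 to Aurka 1.10 ± 0.0413. In the checkpoint, Bub1b stood at 2.17 ± 0.143 and Bub3 at 1.23 ± 0.0455 times Bub1. In the passenger complex, Incenp stood at 1.37 ± 0.0579, Birc5 at 0.687 ± 0.0333 and Cdca8 at 0.554 ± 0.0213 times Aurkb. Ect2 stood at 0.594 ± 0.0216 of Racgap1 and Cenpk at 0.681 ± 0.0962 of Cenph. With the longest transcript as length 3 of the 16 turned to the other side of 1. The log2 ratios were then 0.22 for Cdca8 to Aurkb, -0.15 for Incenp to Aurkb and -0.17 for Tpx2 to Aurka. Those 3 orders hold for summed exon length and not for the other length. Of the ratios that kept their side, 3 moved by more than 1.5 times, that of Nuf2 to Ndc80, that of Ect2 to Racgap1 to 0.337 and that of Bub3 to Bub1 to 1.98.

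**Figure D3:**
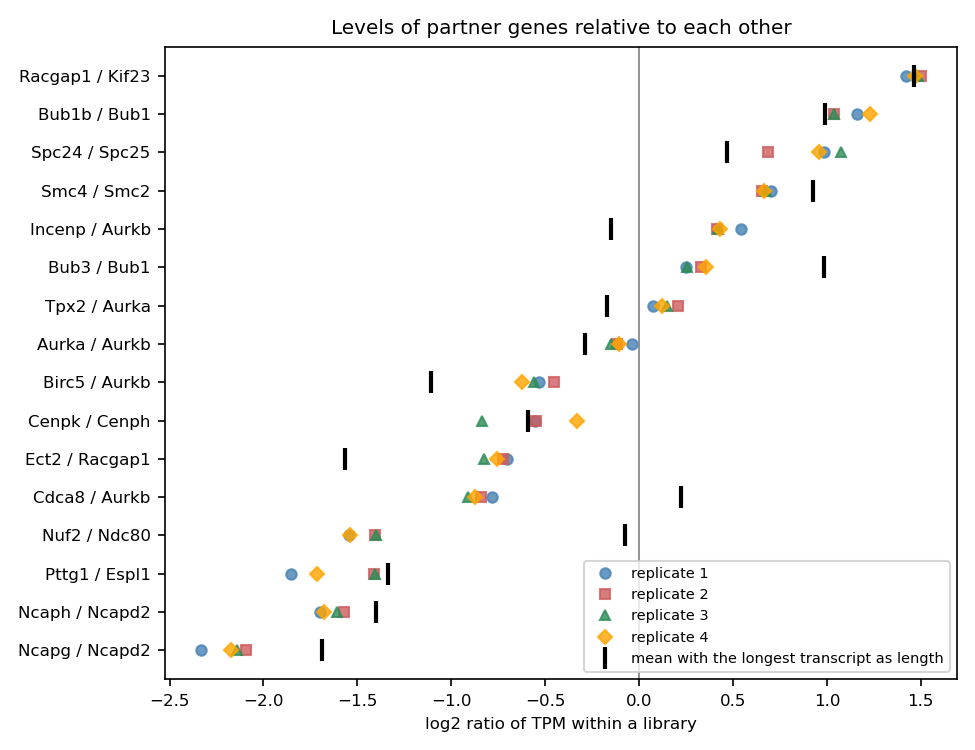
Log2 ratio of TPM of 16 partner genes within each of the 4 libraries (coloured symbols), ordered by mean, with a black bar at the mean ratio obtained with the longest transcript as length. All symbols of a pair lie on the same side of 0, and for Incenp to Aurkb, Tpx2 to Aurka and Cdca8 to Aurkb the black bar lies on the other side.

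The length used moved single levels more than it moved the group. With the longest transcript, 8 genes rose in TPM by more than 1.5 times: Cenpa by 2.90, Cdca8 by 2.31, Prc1 by 1.97, Nuf2 by 1.92, Kif23 by 1.69, Racgap1 by 1.68, Kif22 by 1.68 and Spc25 by 1.52 times. Their exons summed over all transcripts are much longer than their longest protein-coding transcripts, whose lengths came from GENCODE M21. That is not particular to the group. Summed exons were over 1.5 times the longest transcript in 18 of the 48 genes, against 32.2% of expressed protein-coding genes. The share of all expressed genes that rose this much in TPM is not given here. The levels were then 107 TPM for Prc1, 57.9 TPM for Nuf2, 65.1 TPM for Kif23, 179.7 TPM for Racgap1, 154 TPM for Kif22 and 57.6 TPM for Spc25. The median shift over all expressed genes was -0.23 on the log2 scale and that of the 48 was -0.06. Relative to the shift of all genes 12 of the 48 were up by more than 1.5 times and 0 were down. No longest transcript of the 48 was much longer than the summed exons, and their lowest shift was -0.47. A fall of that size was therefore out of reach, and the 0 is no result. Cenpa, Cdca8 and Prc1 moved by 10 or more places in the order.

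The 48 genes varied little between libraries. Their median coefficient of variation of TPM was 3.60%, against 6.52% over all expressed genes and 4.59% over the 3802 genes above 50 TPM in every library, and 37 of the 48 lay under 6.52%. The largest values were 10.4% for Cenph, 9.66% for Spc25, 9.51% for Espl1, 7.93% for Cenpf and 7.89% for Cenpe. The median biological coefficient of variation from edgeR, which leaves out counting noise, was 0.0593 over the 48, against 0.0734 over the 12917 genes tested. With no filter on low counts these medians were 0.0624 for the 48 and 0.250 over 22031 genes, a set that takes in genes with very few counts. Neither edgeR background was matched to the 48 for abundance. Set against the edgeR trend at their own abundance, the 48 lay close to it, mostly a little below and some above. The method draws the value of each gene toward that trend, so the closeness is partly built in. The share of all genes below the trend is not given here, so nothing particular to the 48 is read from it.

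Each library was then compared with the other 3 by edgeR's quasi-likelihood test, which compares libraries and not conditions and assumes that the lone library varies like the rest. In replicate 1, 0 of the 48 genes passed a Benjamini-Hochberg adjusted p of 0.05, against 9 of 12917 genes tested (0.0697%). In replicates 2 and 4, 0 of the 48 passed, against 0 of all genes (0%), and in replicate 3, 0 of the 48 passed, against 3 of all genes (0.0232%). At an unadjusted p under 0.05 both edgeR and DESeq2 listed genes outside the 48 in every library. Such listings are therefore not read as a trait of the group. The counts over all genes depended on the tool and the libraries. DESeq2 called 16, 19, 8 and 0 genes in replicates 1 to 4, and leaving out replicate 4 gave 341 edgeR calls in replicate 1, of which 0 were among the 48. The median log2 difference of the 48 was 0.0154, -0.00977, -0.00792 and -0.0132 in replicates 1 to 4, against -0.00516, -0.00437, -0.00484 and -0.00105 over all genes tested.

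The genes of the group named next had an unadjusted p under 0.05 by edgeR, which genes outside the group also reached in every library. Relative to the other 3 libraries, Cenpf had a log2 difference of -0.22 ± 0.07 (SE) in replicate 2, with an edgeR adjusted p of 0.599. Espl1 had -0.22 ± 0.08 with adjusted p = 0.672, and Spc25 had 0.26 ± 0.10 with adjusted p = 0.672 by the same edgeR test. Cenpe had -0.18 ± 0.07 in replicate 2 and 0.17 ± 0.07 in replicate 1, with edgeR adjusted p of 0.694 and 0.457. Ube2c had 0.19 ± 0.08 in replicate 3, with an edgeR adjusted p of 1.00.

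Base composition moved with these small differences. Across the 48 genes, Spearman's rho between the log2 difference of a library from the other 3 and the GC content of the longest transcript was 0.395, -0.663, -0.0466 and 0.251 in replicates 1 to 4. Over 11357 genes it was 0.154, -0.325, -0.0799 and 0.253. In replicate 2 the GC-rich genes of the group thus lay lower and the AT-rich genes higher. With exon length rho was 0.139, -0.0238, -0.0976 and 0.152. These are descriptions across genes, which are not independent replicates, and the 4 libraries of each contrast are the same. The part of base composition in the differences was not tested.

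**Figure D4:**
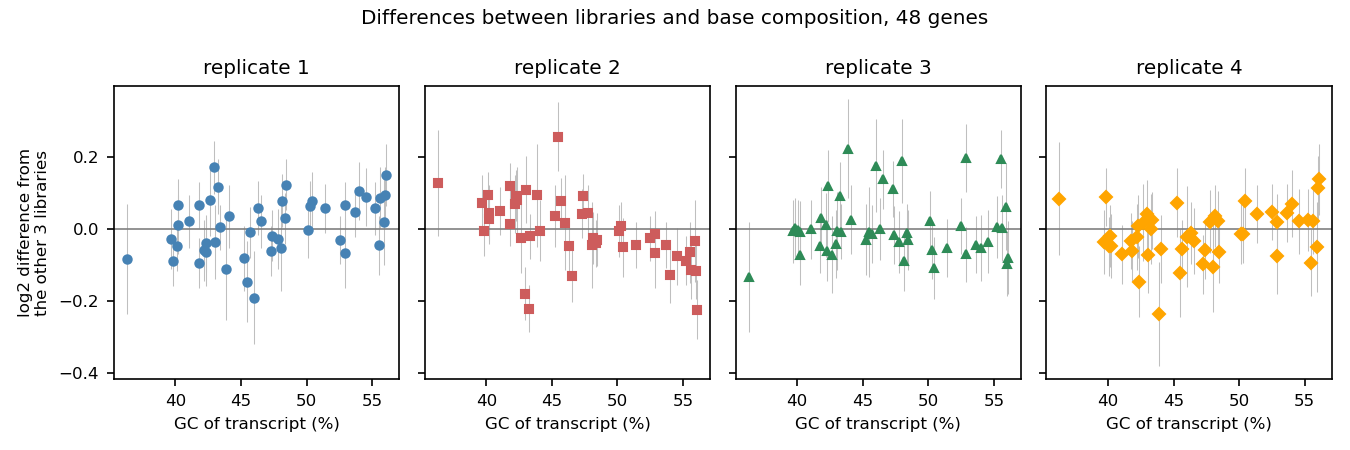
Log2 difference of each of the 48 genes in a library from the other 3 (points, with SE bars) against the GC content of its longest transcript (%), with a panel for each replicate. The points slope downward in replicate 2 (rho -0.663), and every point lies within 0.26 of 0.

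The other genes of the division machinery were expressed as well. Of 113 further genes in 7 lists, 113 were found and reached 1 TPM in every library, with a median of 51.2 TPM, and 56 lay above 50 TPM. With the longest transcript as length 14 of the 113 were up and 2 were down by more than 1.5 times, and the 3 highest genes changed in the outer kinetochore, anaphase-promoting complex, mitotic entry and spindle lists. In the inner kinetochore list, 16 genes with a median of 34.7 TPM, Hjurp, the chaperone that loads Cenpa, averaged 176 ± 9.31 TPM, Cenpx 132 ± 4.34 TPM and Cenpb 102 ± 6.36 TPM. In the outer kinetochore list, 17 genes with a median of 55.8 TPM, Zwint averaged 114 ± 4.80 TPM, Trip13, the ATPase that disassembles checkpoint complexes, 83.9 ± 4.55 TPM and Mad2l1bp 81.6 ± 5.36 TPM. The cohesin list, 14 genes with a median of 66.4 TPM, was led by its core subunits, Rad21 at 371 ± 5.71 TPM (246 TPM with the longest transcript), Smc1a at 192 ± 8.52 TPM and Smc3 at 124 ± 4.58 TPM.

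Among 17 genes of the anaphase-promoting complex, with a median of 55.2 TPM, Anapc5 averaged 313 ± 5.92 TPM (503 TPM with the longest transcript), the cullin-like Anapc2 averaged 149.6 ± 5.43 TPM and Fzr1, the activator of late mitosis and G1, averaged 130.5 ± 8.25 TPM. Fzr1 thus stood below Cdc20 in all 4 libraries. Among 19 genes of mitotic entry, with a median of 48.6 TPM, the cyclins Ccna2 and Ccnb2 averaged 286 ± 9.55 and 218 ± 9.04 TPM and the inhibitory kinase Pkmyt1 averaged 130.1 ± 12.8 TPM. Among 27 further spindle and centrosome genes, with a median of 50.1 TPM, Tacc3 averaged 163 ± 1.91 TPM, Numa1 151 ± 16.1 TPM and Haus4 131 ± 5.45 TPM. The hexamer near the start was found in 26 of the 94 genes of these lists with a RefSeq window (27.7%), among them Ccnb1, Ccnb2, Cdk1, Hjurp and Knl1, and in 1 of 16 of the anaphase-promoting complex.

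Meiotic counterparts and relatives of these genes were nearly absent. Of 12 such genes 1, Rec8, the meiotic kleisin of cohesin, reached 1 TPM in every library, at 2.76 ± 0.383 TPM, while its mitotic counterpart Rad21 averaged 371 TPM. Stag3 had 1.04, 0.455, 1.34 and 1.84 TPM. Cdc20b, a relative of Cdc20 that was counted among the 12, averaged 0.359 ± 0.116 TPM. Altogether 11 of the 12 fell below 1 TPM in at least 1 library, and 6 had no count in any library, among them Rad21l, Sycp2 and Hormad1. A count of 0, with 3 counts as the limit, allows up to 0.143 TPM for Rad21l, 0.0398 TPM for Sycp2 and 0.137 TPM for Hormad1 in the library with the fewest counts, for counting error only. Aurkc, the meiotic Aurora kinase, named after its values were seen, had 2 counts in replicate 2 and 0 in the other libraries, while Aurka and Aurkb averaged 182 and 195 TPM.

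**Figure D5:**
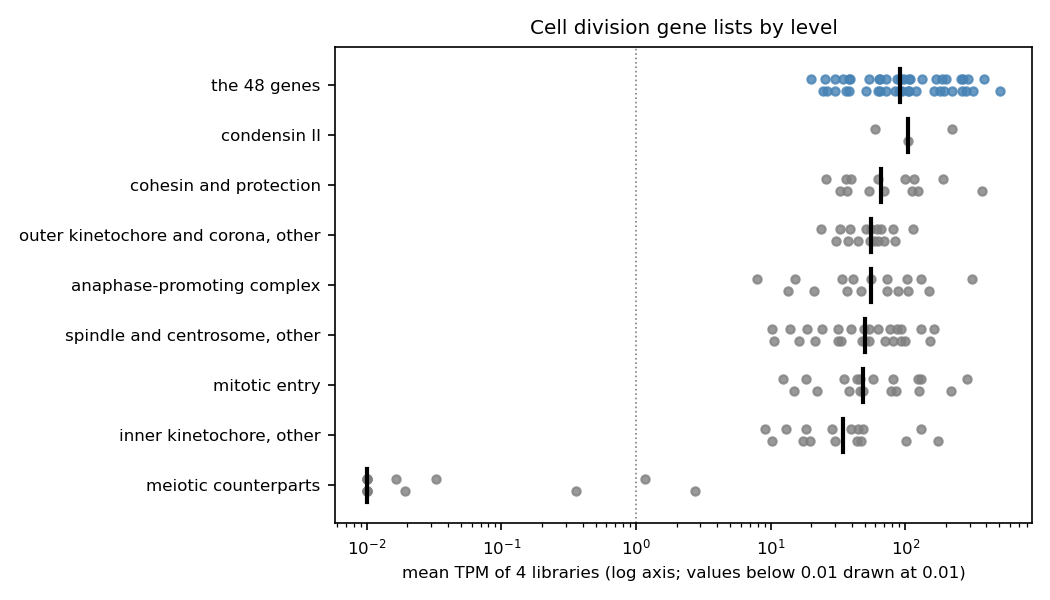
Mean TPM of 4 libraries (log axis) for each gene of the 48 (blue) and of 7 further division lists and the meiotic counterparts (grey), with a black bar at the median of each list and a dotted line at 1 TPM. The 48 genes have a median of 92.0 TPM and the 113 others of 51.2 TPM, and the genes of the meiotic list lie at or below 2.76 TPM.

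Neighbouring genes could share a promoter region with several of the 48. A protein-coding gene on the opposite strand starts within 1000 bases upstream of 7 of them, Aurka, Cenpk, Cenpn, Hmmr, Kif20a, Ncapd2 and Smc4, at distances of 23 bases for Kif20a and Brd8 to 275 bases for Cenpn and Cmc2. On the same strand exons of another gene overlap 3.78% of the exon bases of Ncapd2 and 1.35% of those of Top2a, and none of the exon bases of the other 46. Antisense overlap, up to 33.2% of the exon bases of Kif20a, was set apart by stranded counting.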

How the data were processed

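RNA of mouse regulatory T cells was sequenced in 4 libraries, labelled total RNA with a cited polyA+ library protocol. Paired fragments were counted per gene by the authors with featureCounts 1.4.6-p4 on mm10 and GENCODE M13, over exons, with both ends mapped and reverse strand, per the file headers. The deposited values are raw counts per gene. The aligner's settings and any filters are not given in the sources used here.

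Gene names came from GENCODE M21. Of 50600 genes, 50376 had a symbol. TPM was computed here as counts over summed exon length, scaled to the same total in each library. A gene was called expressed at 1 TPM or more in all 4 libraries. Each library was compared with the other 3 with edgeR 4.0.16 (R 4.3.3, TMM, filterByExpr, quasi-likelihood test, Benjamini-Hochberg over all genes tested, threshold 0.05), checked on simulated counts, with DESeq2 1.42.0 as an alternative. Ratios of partner genes were tested with an exact permutation test, two-sided, that flips the sign of the log2 ratio of each library. Promoter windows are from RefSeq (GRCm38.p6), and protein motifs were not analysed here. Python 3.11.15, pandas 2.3.3 and scipy 1.17.1 were used.

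Every gene of the 48 is named with its mean and SD. Library values are given for the 10 highest, the 5 lowest and the 5 of largest coefficient of variation, and for others only where a library stood apart. Of each further division list the 3 highest are named, while the T cell markers named were picked for the cell type. Lists, genes and pairs were chosen with earlier results of these data known. Alternatives were a longest-transcript length, TPM over coding genes, other expression thresholds, RLE factors, no expression filter, DESeq2 and leaving out each library.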

Additional observations from a re-analysis of the deposited data

Results flagged for a closer look

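Of 88 sets of 4 library values examined for a library far from the other 3 (the levels of the 48 genes, the 16 log2 ratios of partners and the levels of the named genes of the further division lists), 3 were past Dixon's limit for 4 values, and chance flags about 1 in 20 sets. Kif20a stood at 179.6 TPM in replicate 1, against 163 to 165 TPM in the other libraries. Spc24 stood at 79.4 TPM in replicate 3, against 69.4 to 69.9 TPM in the others. The log2 ratio of Incenp to Aurkb was 0.54 in replicate 1, above its values in the other 3 libraries. For Kif20a and Spc24 the edgeR comparison of that library with the other 3 did not pass an adjusted p of 0.05, and the cause was not tested.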

How the results depend on the processing

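All 48 genes stayed expressed at 5 or 10 TPM and at 1 FPKM, and 0 of the 48 were called in any library under any alternative. A gene expressed in all 4 libraries stays so when a library is left out, so that setting gives no check of the count. The ratio of Nuf2 to Ndc80 turned to a log2 of 0.053 in CPM, which takes no length into account, and the longest transcript turned Cdca8 to Aurkb (0.22), Incenp to Aurkb (-0.15) and Tpx2 to Aurka (-0.17), as each setting changes the length alone. The median level was 99.5 TPM with the longest transcript and 96.8 TPM over coding genes only. Single levels moved beyond their SD for 43 and 34 of the 48 under these settings. Leaving out a library moved 0, but a mean of 4 values cannot move by more than its SD that way. That setting therefore gives no check of single levels. The counts of all genes called, 9, 0, 3 and 0 in replicates 1 to 4, became 105, 60, 35 and 16 with no expression filter, and 16, 19 and 8 in replicates 1 to 3 with DESeq2. Leaving out another library gave 23 to 341 in replicate 1 (341 without replicate 4), 3 to 52 in replicate 2, 16 to 21 in replicate 3 and 2 to 9 in replicate 4, every such omission moving the count by over 1.5 times, and the cause was not tested. The median biological coefficient of variation of the 48 was 0.0624 with no filter, where that of all genes was 0.250, and 0.0605 to 0.0641 without each library. No pairing between conditions was possible because all libraries form 1 group, and only the ratios of partner genes were paired, within a library. These values rest on RNA alone, from 4 libraries of unstated origin whose labels give no time point, and intervals from 4 values are wide.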
